A study of Mus musculus with 6 samples.

Results

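The 10 genes described here are the 4 Notch receptors Notch1, Notch2, Notch3 and Notch4, the ligands Jag1, Jag2 and Dll4, and the target genes Hey1, Hey2 and Heyl. They were taken by symbol from a table of 23107 genes that was made from mouse aortic valves. RNA-Seq was carried out on 3 control and 3 mutant libraries, all from outbred mice aged 4 months. The mutants, labelled Acvr1:Nfatc1Cre, carried a transgene for constitutively active Acvr1, a type I receptor for bone morphogenetic proteins, and a Cre recombinase knocked into the Nfatc1 locus, which is active in the endocardium and its derivatives and also in cells of the leaflet-wall junction that have another origin. The controls are labelled wild type, but the methods also allow mice with only the transgene or only Cre, and which of these were sequenced was not given. Neither the sex of the mice nor the number of valves per library was given, so that p-values measure the spread between these 6 libraries, which may be technical.

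Notch receptors are cut after they bind a ligand on a neighbouring cell, and their intracellular domain then enters the nucleus, binds Rbpj and switches on genes such as those of the Hey and Hes families, which encode transcriptional repressors. In blood vessels and heart, Notch1, Notch4, Dll4 and Jag2 are known from the endothelium, and Notch3 and Heyl from the smooth muscle cells and pericytes around it. Jag1 is made by both layers, and Hey1 and Hey2 are active in endothelium, smooth muscle and myocardium. Loss of 1 copy of Notch1 is a known cause of malformed and calcified aortic valves, and Hey1 is also a target of bone morphogenetic protein signaling in endothelial cells.

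The promoter of the target gene Hey2 is given from 250 bases before to 50 bases after the start site (RefSeq, GRCm38.p6, minus strand, chr10:30842734-30843033). Capitals mark the letters TGGGAA on either strand, which form the core of the site that Rbpj binds.
Hey2 promoter: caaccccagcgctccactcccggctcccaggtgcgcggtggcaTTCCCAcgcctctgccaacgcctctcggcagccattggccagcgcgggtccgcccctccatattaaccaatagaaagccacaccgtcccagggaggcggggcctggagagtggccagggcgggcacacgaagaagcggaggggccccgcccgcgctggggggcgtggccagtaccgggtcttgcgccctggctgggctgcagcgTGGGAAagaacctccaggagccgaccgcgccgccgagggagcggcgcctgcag
Read along the strand on which the core appears, both matches begin with the same 2 further letters, cg, as these windows of 22 bases show.
Hey2 upstream match: cagaggcgTGGGAAtgccaccg
Hey2 start site match: ctgcagcgTGGGAAagaacctc
The longer match, CGTGGGAA on either strand, was found in 0.734% of 32851 promoters of the same length, and the core TGGGAA in 25.6%. RefSeq promoters were matched for 8 of the 10 genes, all but Hey1 and Heyl, and of these 8 only Hey2 held the core. The letters CACGTG, an E-box of the kind that Hey proteins can bind, were in 0 of the 8 windows and in 7.15% of all promoters. Such matches are descriptions of the letters in these windows, and binding was not tested.

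All 10 genes were well covered, with 617 counts for Dll4 in mutant replicate 3 as the lowest and 15535 counts for Heyl in control replicate 2 as the highest. Library totals were 46180667 to 55728852 fragments in the controls and 32218345 to 53129462 in the mutants. Levels of one gene are given as CPM, the gene's count relative to the size of its library after TMM scaling in edgeR. Between genes, levels are given per kilobase of exon of the CPM (FPKM), since longer transcripts give more fragments. The tissue carried the markers of its label, with all 8 markers of valve interstitial cells and fibroblasts and all 9 endothelial markers read in every library. It also held cardiac muscle, and the 10 cardiac muscle markers together took 10000 to 29300 CPM in the controls and 16600 to 36500 CPM in the mutants. In such bulk samples, fewer cells of a type and less RNA per cell cannot be told apart.

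Heyl had the highest level per length of the 10 genes in both groups. In the controls Heyl stood at 45.1 ± 13.04 FPKM (SD, n = 3), followed by Jag1 at 17.98 ± 6.19 FPKM, Hey2 at 11.0 ± 1.71 FPKM, Hey1 at 9.98 ± 1.795 FPKM and Notch1 at 8.61 ± 0.584 FPKM. Notch3 at 6.57 ± 2.68 FPKM, Dll4 at 5.23 ± 0.0797 FPKM, Notch4 at 5.07 ± 1.14 FPKM, Jag2 at 3.21 ± 0.281 FPKM and Notch2 at 2.66 ± 0.629 FPKM made up the lower part of the order. Of these neighbours, Heyl and Jag1, Jag1 and Hey2, and Notch4 and Jag2 had ranges over the 3 controls that did not overlap, while each other pair of neighbours overlapped. In the mutants Heyl, Jag1, Hey2, Hey1 and Notch1 kept places 1 to 5, at 26.5, 14.1, 12.3, 11.0 and 8.29 FPKM. Dll4 at 4.46 FPKM then stood before Notch3 at 4.35 FPKM, and the ranges of these 2 genes overlapped. Of the neighbours in the mutants, only Heyl and Jag1, and Notch1 and Dll4, had ranges that did not overlap. When lengths were taken from the longest transcript, Hey2 (19.8 FPKM in the controls) came before Jag1 (18.7 FPKM), and Notch1 was read at 12.9 FPKM. With these lengths Hey2 (22.2 FPKM) and Hey1 (14.8 FPKM) came before Jag1 (14.6 FPKM) in the mutants.

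Set against the controls, 0 of the 10 genes in the mutants had an adjusted p under 0.05 in the quasi-likelihood test of edgeR, where 0 of all 15354 genes tested (0%) had one. At an unadjusted p under 0.05 there was 1 of the 10, Heyl, against 3.45% of the genes tested. In 2 of the 10, Heyl and Dll4, every mutant lay below every control, which was so in 4.83% of the genes tested, and in 0 of the 10 did every mutant lie above every control, against 4.04%. The log2 fold change, mutants against controls, was negative in 8 of the 10, and in 47.8% of the genes tested. The median was -0.24 over the 10 genes and 0.0097 over all genes tested. DESeq2 called 26 genes (0.169%), and 0 of the 10 were among them.

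**Figure D1:**
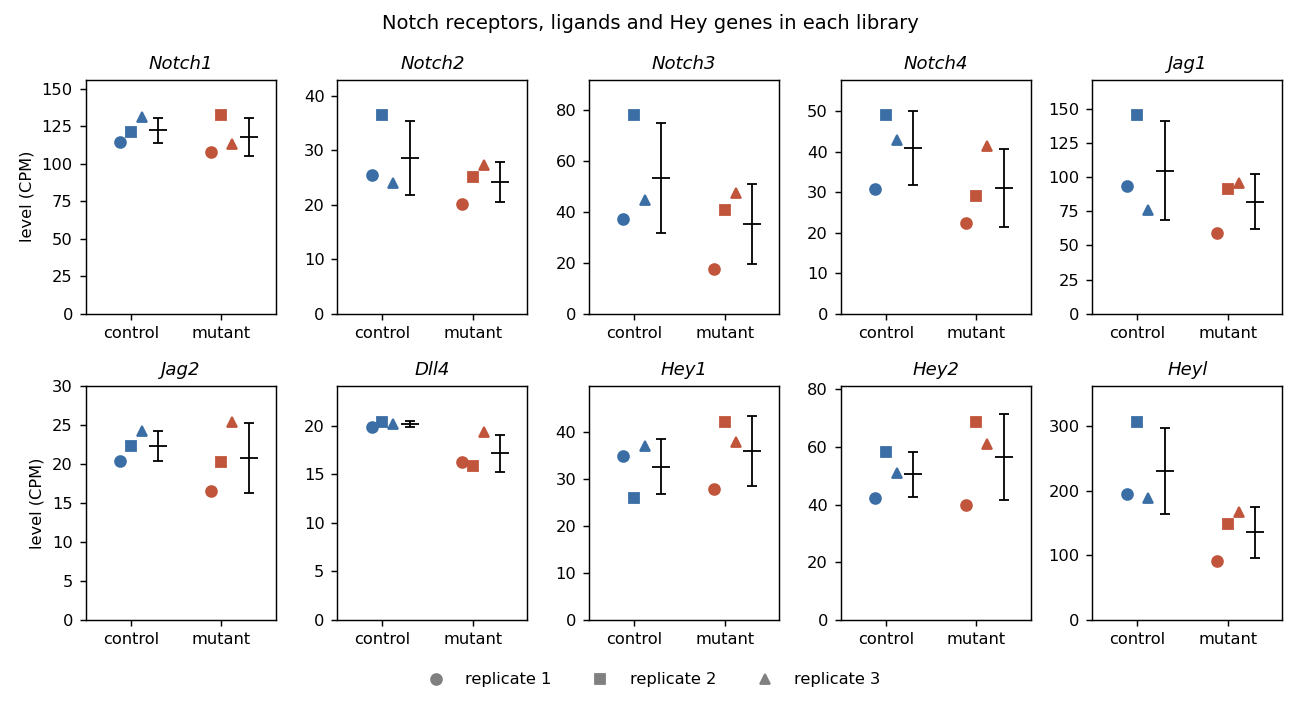
Level of each of the 10 genes in CPM (y axis, from 0) in the control (blue) and mutant (red) libraries, with a marker shape for each replicate number and the mean with its SD (n = 3) beside the points. Heyl and Dll4 have groups that do not overlap, and mutant replicate 1 is the lowest of the 6 libraries in 8 of the 10 genes.

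Of the target genes, Heyl (ENSMUSG00000032744.4, chromosome 4 of GRCm38, 123233556 to 123249875) had the lowest p of the 10. It encodes a basic helix-loop-helix repressor of the Hey family. Heyl was read at 196, 307 and 188 CPM in the 3 controls and at 91.9, 148 and 167 CPM in the 3 mutants. Libraries are given here in the order of their replicate numbers. All 3 mutants lay below all 3 controls, with control replicate 2 far above the other controls and mutant replicate 1 far below the other mutants. For Heyl the log2 fold change was -0.77 (standard error 0.28, 95% interval -1.42 to -0.11), with an unadjusted p = 0.0280 and an adjusted p = 0.999 from the edgeR test. Under DESeq2 the unadjusted p of Heyl was 0.00876 and the adjusted p = 0.603. Over the 19 alternative settings the unadjusted p was under 0.05 in 13 and not in 6. The log2 fold change of Heyl was -0.50 without control replicate 2, -0.55 without mutant replicate 1 and -0.28 without both. With that pair left out, a setting picked once the values were known, Heyl was still lower in both remaining mutants than in both remaining controls, as were 18.2% of the genes tested.

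Hey1 and Hey2, the other family members, did not share its pattern over the libraries. Hey1 (chromosome 3, 8663359 to 8667256) was read at 34.9, 25.9 and 37.0 CPM in the 3 controls and at 27.7, 42.2 and 37.9 CPM in the mutants. Its groups overlapped, and its lowest library was control replicate 2, the one in which Heyl was highest. Between the groups Hey1 differed on the log2 scale by 0.14 (standard error 0.20, 95% interval -0.33 to 0.61). This was 0.0039 without control replicate 2, 0.0094 without mutant replicate 2, 0.24 without control replicate 3 and 0.30 without mutant replicate 1. Hey2 (chromosome 10, 30832359 to 30842801) was read at 42.4, 58.1 and 51.1 CPM in the controls and at 39.8, 68.8 and 61.0 CPM in the mutants. Mutant replicates 2 and 3 were the highest libraries for Hey2 and mutant replicate 1 the lowest, so that the groups overlapped. For Hey2 the log2 fold change was 0.16 (standard error 0.22, 95% interval -0.36 to 0.68), 0.36 without mutant replicate 1 and -0.0052 without mutant replicate 2.

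The make-up of the Hey family within a library does not depend on how libraries are scaled, and it separated the groups. It can still depend on the cell types in the library and on the gene lengths used. The part of the cell types in the shares was not tested. Heyl made up 65.8%, 74.5% and 62.1% of the FPKM of the 3 Hey genes in the 3 controls, and 51.15%, 50.9% and 56.7% in the mutants. Every mutant share lay below every control share, with means of 67.5% ± 6.34 and 52.9% ± 3.31 (SD, n = 3) and a difference of -14.5 percentage points. The share of Hey2 was 15.9%, 15.7% and 18.8% in the controls and 24.7%, 26.4% and 23.1% in the mutants, and that of Hey1 was 18.35%, 9.84% and 19.1% against 24.2%, 22.75% and 20.2%. Both shares were higher in every mutant than in every control, by 7.93 points for Hey2 and 6.605 points for Hey1. Without control replicate 2 the difference was 3.64 points for Hey1, 7.39 points for Hey2 and -11.0 points for Heyl. Each of these 3 shares gave p = 0.1 in a two-sided exact permutation test, the smallest that 3 libraries against 3 allow, and 0.333 after adjustment over the 10 shares computed for the receptors, ligands and Hey genes. The 3 shares add to the same total in a library and are not separate results. With shares of counts in place of FPKM the differences were -13.6 points for Heyl, 8.54 for Hey2 and 5.06 for Hey1.

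**Figure D2:**
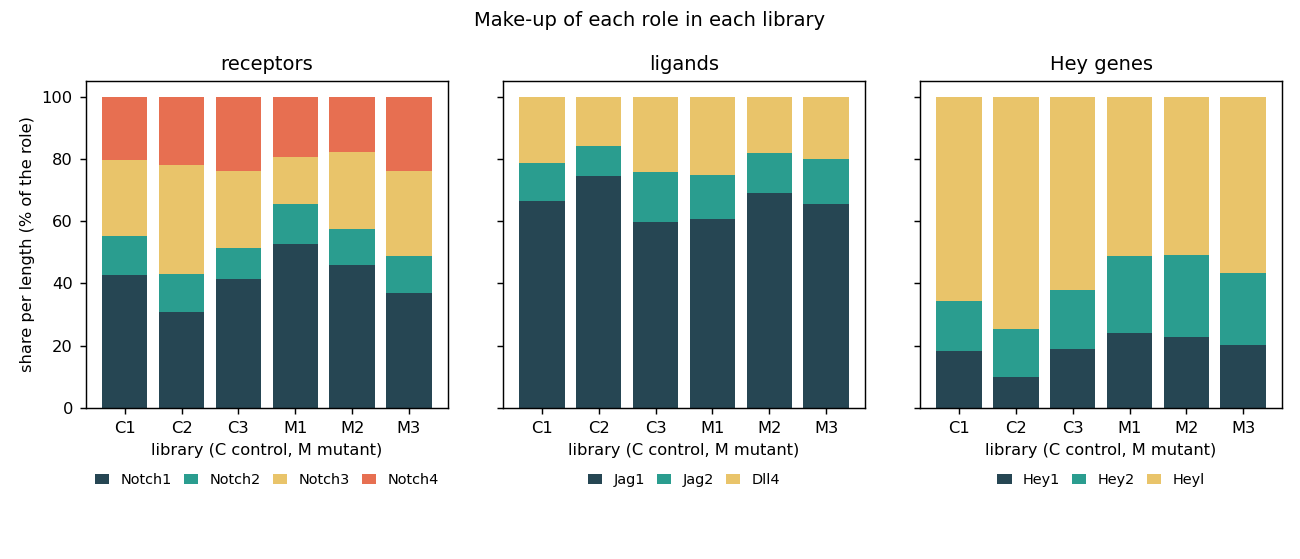
Share of each gene (y axis, percent of the FPKM of its role) in each of the 3 control (C) and 3 mutant (M) libraries, stacked for the receptors, the ligands and the Hey genes. Heyl takes 62.1% to 74.5% of the Hey genes in the controls and 50.9% to 56.7% in the mutants, while the shares of every receptor and ligand overlap between the groups.

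Among the receptors, Notch1 stood out for its even level. Notch1 (ENSMUSG00000026923.15, chromosome 2, 26457903 to 26516663) is the receptor whose dosage matters for valve disease in mice and humans. It was read at 115, 121 and 131 CPM in the 3 controls and at 108, 132 and 113 CPM in the mutants. The highest and the lowest library were both mutants, and the groups overlapped. This left Notch1 at a log2 fold change of -0.05 (standard error 0.11, 95% interval -0.32 to 0.21, adjusted p = 0.999 from the edgeR test). Exons of 0610009E02Rik and Gm13568, on the other strand, share 1068 and 414 bases with the 14232 exon bases of Notch1. Fragments from there cannot be told apart by strand, since the TruSeq RNA kit named in the labels does not mark it.

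Notch3 (ENSMUSG00000038146.8, chromosome 17, 32120820 to 32166852) is the receptor of vascular smooth muscle cells and pericytes. It was read at 37.1, 77.8 and 44.6 CPM in the controls and at 17.6, 40.6 and 47.4 CPM in the 3 mutants. Control replicate 2 was the highest and mutant replicate 1 the lowest, and the other 4 libraries overlapped between 37.1 and 47.4 CPM. Notch3 gave a log2 fold change of -0.60 (standard error 0.41, 95% interval -1.57 to 0.38), -0.21 without control replicate 2 and -0.27 without mutant replicate 1. Without both libraries it was 0.11, so that its direction rested on that pair. Exons of the antisense gene Gm17276 share 488 bases with the 8089 exon bases of Notch3.

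Notch4 (chromosome 17, 34564268 to 34588503), a receptor of endothelial cells, was read at 30.9, 48.9 and 42.9 CPM in the controls and at 22.45, 29.0 and 41.4 CPM in the mutants. The groups overlapped, since mutant replicate 3 lay above control replicate 1. Its log2 fold change was -0.40 (standard error 0.26, 95% interval -1.02 to 0.21), -0.25 without control replicate 2 and -0.22 without mutant replicate 1, and -0.06 without both. It was -0.57 without control replicate 1 and -0.67 without mutant replicate 3, the latter with an unadjusted p = 0.0310 and an adjusted p = 0.999 in edgeR. Notch2 (chromosome 3, 98013527 to 98150361), a receptor found in many cell types, was read at 25.5, 36.45 and 24.05 CPM in the controls and at 20.2, 25.1 and 27.4 CPM in the mutants. Its groups overlapped, with control replicate 2 again the highest library. Notch2 thus differed on the log2 scale by -0.24 (standard error 0.20, 95% interval -0.71 to 0.22), and -0.03 without control replicate 2. Gm42820, annotated on the same strand, shares 541 of the 10782 exon bases of Notch2. Within the receptors, Notch1 made up 38.4% ± 6.49 (SD, n = 3) of their FPKM in the controls and 45.2% ± 7.85 in the mutants, and Notch3 28.0% ± 5.96 and 22.4% ± 6.45. The difference for Notch1, 6.86 points, was 3.13 without control replicate 2, 3.12 without mutant replicate 1 and 10.95 without mutant replicate 3, and that for Notch3, -5.60 points, was -2.16 and -1.95 without control replicate 2 and mutant replicate 1. The exact permutation p was 0.4 for the share of Notch1 and 0.6 for that of Notch3, and the shares of the 4 receptors overlapped between the groups.

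Of the ligands, Dll4 had the closest controls. Dll4 (ENSMUSG00000027314.6, chromosome 2, 119325784 to 119335962) is the Delta ligand of arterial endothelium and sprouting vessels. It was read at 19.8, 20.4 and 20.2 CPM in the 3 controls and at 16.3, 15.9 and 19.4 CPM in the mutants. Every mutant lay below every control, mutant replicate 3 by a margin smaller than 1 CPM. On the log2 scale Dll4 differed by -0.23 (standard error 0.12, 95% interval -0.52 to 0.06, unadjusted p = 0.105, adjusted p = 0.999 from the edgeR test), and by -0.32 to -0.18 when each of the 6 libraries was left out in turn. Its sign was negative in all 19 alternative settings. Exons of Gm14207, on the other strand, share 214 bases with the 3852 exon bases of Dll4.

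Jag1 (chromosome 2, 137081456 to 137116644), the Jagged ligand that endothelium and smooth muscle use to signal to smooth muscle, was read at 93.4, 145 and 75.7 CPM in the controls. The mutants stood at 59.0, 91.5 and 95.6 CPM, and the groups overlapped. Jag1 differed by -0.35 (standard error 0.28, 95% interval -1.02 to 0.31), -0.04 without control replicate 2 and 0.15 without both control replicate 2 and mutant replicate 1, on the log2 scale. Jag2 (chromosome 12, 112907819 to 112929776), an endothelial ligand here read at the lowest level per length of the 3, had 20.4, 22.4 and 24.3 CPM in the controls and 16.5, 20.3 and 25.5 CPM in the mutants. Its highest and lowest libraries were both mutants. Its log2 fold change was -0.11 (standard error 0.18, 95% interval -0.53 to 0.31), and 0.03 without mutant replicate 1. Jag1 made up 67.0% ± 7.34 (SD, n = 3) of the FPKM of the 3 ligands in the controls and 65.0% ± 4.25 in the mutants, with an exact permutation p of 0.8. That difference, -1.96 points, was 1.81 without control replicate 2, 0.25 without mutant replicate 1, -5.52 without control replicate 3 and -3.99 without mutant replicate 2.

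**Figure D3:**
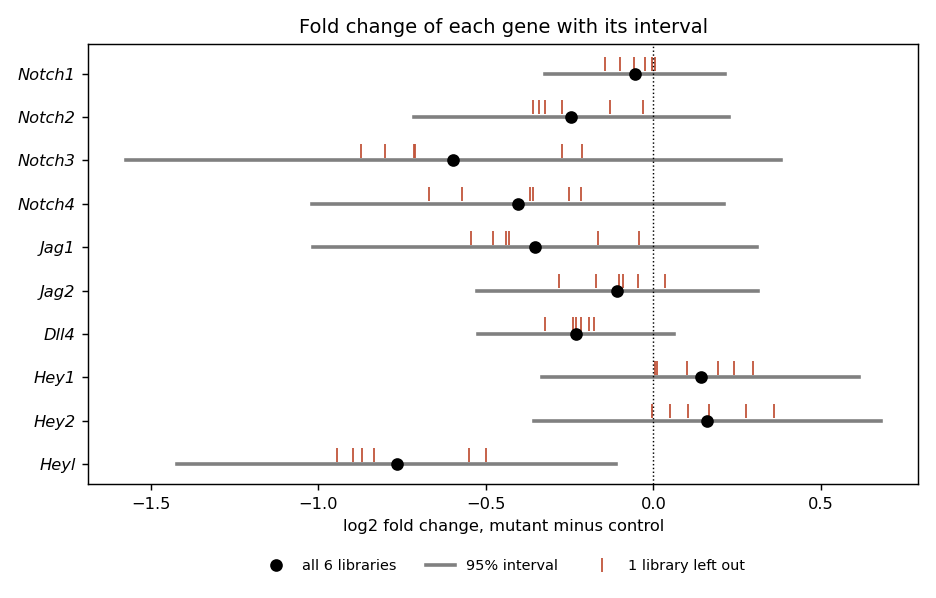
Log2 fold change of each gene, mutant minus control (x axis), as a black point with its 95% interval from edgeR in grey and the values obtained when each of the 6 libraries was left out in turn as red ticks. Only the interval of Heyl, -1.42 to -0.11, lies on one side of 0, and the ticks of Notch1, Jag2 and Hey2 cross 0.

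Across the 6 libraries the 10 genes followed a few shared patterns. Control replicate 2 was the highest library for 6 of them, Notch2, Notch3, Notch4, Jag1, Dll4 and Heyl, and mutant replicate 1 was the lowest for 8, all but Dll4 and Hey1. In log2 CPM relative to the mean of the 6 libraries, Heyl stood at 0.84 in control replicate 2 and -0.90 in mutant replicate 1, Notch3 at 0.94 and -1.20, and Jag1 at 0.69 and -0.61. The smooth muscle myosin gene Myh11 stood at 1.41 and -1.46 in the same libraries. It was 1 of 6 of the 10 smooth muscle and pericyte markers, with Cnn1, Tagln, Acta2, Cspg4 and Mcam, that were highest in control replicate 2 and lowest in mutant replicate 1, whereas the other 4, Des, Rgs5, Kcnj8 and Abcc9, were at their lowest in control replicate 2. The mean of the cardiac muscle markers was also lowest in that library, at -1.26. The part of cardiac muscle in the values of these 4 genes was not tested. Hey1 went the other way from Heyl in control replicate 2, at -0.38, and Notch1 stayed between -0.15 and 0.14 in all 6 libraries.

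**Figure D4:**
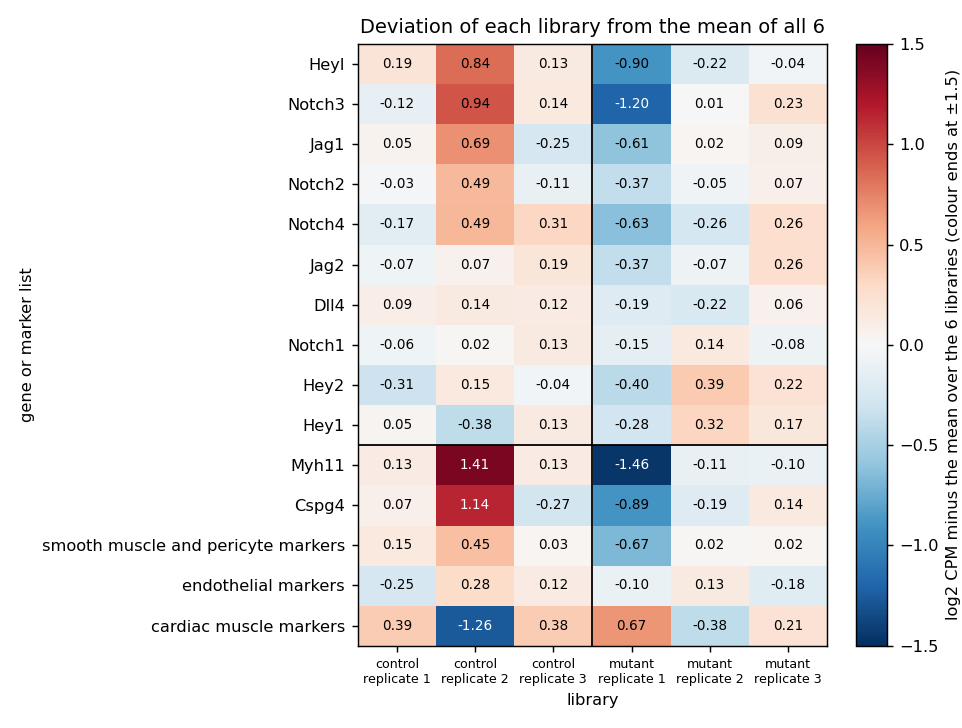
Log2 CPM minus the mean over the 6 libraries, for the 10 genes (above the line), the smooth muscle and pericyte genes Myh11 and Cspg4, and the mean of 3 marker lists, with a column for each library. Heyl, Notch3 and Jag1 share the high value in control replicate 2 and the low value in mutant replicate 1 with Myh11 and Cspg4, which stand for 6 of the 10 markers of their list while the other 4 were lowest in control replicate 2, and the cardiac muscle markers have their lowest value, -1.26, in control replicate 2.

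Marker lists of other cells differed in how they varied over the libraries, and it was the mean of the smooth muscle and pericyte list, not each of its genes, that was highest in control replicate 2 and lowest in mutant replicate 1. Of the 10 smooth muscle and pericyte markers, 6 were lower and 4 higher in the mutants, and in 3 of them, Myh11, Tagln and Mcam, every mutant lay below every control, against 4.83% of all genes tested. Their summed level was 6540 to 13100 CPM in the controls and 3760 to 6770 CPM in the mutants, and 0 of them were at 0 in any library. Myh11 was read at 975, 2367 and 974 CPM in the 3 controls and at 325, 828 and 830 CPM in the mutants. The genes of the list that pericytes are known for went both ways and did not pass the test, with log2 fold changes of -0.83 for Mcam, -0.70 for Cspg4, 0.06 for Rgs5, 0.23 for Kcnj8 and 0.39 for Abcc9. The endothelial markers, 5 lower and 4 higher in the mutants and 0 of 9 without overlap against 4.83% of all genes tested lower and 4.04% higher, summed to 1800 to 2700 CPM in the controls and 2020 to 2380 CPM in the mutants. All 6 macrophage markers tested had a positive log2 fold change, and in 3 of them, C1qa, C1qb and Cd68, every mutant lay above every control, against 4.04% of all genes tested. Their unadjusted p was 0.0161, 0.0117 and 0.0109 and their adjusted p = 0.999 in edgeR. The macrophage markers summed to 552 to 630 CPM in the controls and 697 to 763 CPM in the mutants, with 0 of them at 0 in any library, and their part in the results for the 10 genes was not tested. Of the 10 cardiac muscle markers 9 were higher in the mutants, with 0 of 10 without overlap, and their mean was highest in mutant replicate 1, at 0.67. All 4 adipocyte markers were lower, with overlapping groups that summed to 26.7 to 127 CPM in the controls and 24.5 to 97.6 CPM in the mutants.

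With the mean log2 CPM of the smooth muscle and pericyte list as a covariate, a setting added once the values were known, Heyl had a log2 fold change of -0.24 while Notch3 had 0.17, Jag1 0.18 and Notch2 0.09. Under that covariate 3 of the 10 genes and 50.8% of all genes tested had a negative log2 fold change, and without it 8 of the 10 and 47.8%. Hey2 then stood at 0.52 (unadjusted p = 0.0180, adjusted p = 0.987 in edgeR). With the endothelial list as the covariate Heyl had -0.67 and Notch3 -0.40, and with the cardiac muscle list -0.60 and -0.36. Relative to the geometric mean of the smooth muscle and pericyte markers of the same library, the Heyl values of the mutants all lay under those of the controls, at -0.34 ± 0.19 (SD, n = 3) in the controls and -0.70 ± 0.10 in the mutants on the log2 scale. Relative to the sum of those markers, the difference for Heyl was -0.11 in place of -0.36, and the groups overlapped. Relative to the geometric mean, Hey1 and Hey2 were higher in every mutant, by 0.55 each, but Hey1 by 0.28 without control replicate 2. Each of the 3 differences against the geometric mean, for Heyl, Hey1 and Hey2, had an exact permutation p of 0.1. This is the smallest possible, and it was 0.571 after adjustment over the 20 ratios computed. Relative to the endothelial markers, the groups of all 10 genes overlapped. The part of the smooth muscle content in the values of Heyl, Notch3 and Jag1 was not tested beyond these ratios and covariates. How far the smooth muscle and pericyte list also reads cardiac muscle was not tested.

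Among the 104 other listed genes that passed the filter, those of Notch signaling and of cell type markers, the closest in pattern over the 6 libraries were found by Pearson's r of the log2 CPM, as a description without a test. These libraries share their group and their tissue make-up, and with 6 points the highest of 104 values is high by construction. For Heyl the closest genes were Myh11 (r = 0.988), Tagln (r = 0.987) and Cnn1 (r = 0.981), all of the smooth muscle contractile apparatus. For Notch3 they were Mfng, a glycosyltransferase that modifies Notch receptors (r = 0.995), Acta2 (r = 0.988) and Poglut1 (r = 0.975). Jag1 and Notch2 were closest to the pericyte and smooth muscle gene Cspg4, with r = 0.984 and r = 0.994, and to each other with r = 0.982. Notch1 lay closest to Erg and Tie1, both endothelial, with r = 0.938 and r = 0.931, and to Postn, with r = 0.906. Hey2 was closest to the endothelial gene Pecam1 (r = 0.915), and Hey1 to Kcnj8, a channel subunit of pericytes (r = 0.974). For Notch4 the closest gene was Col1a2 (r = 0.963), for Jag2 Mib2 (r = 0.928) and for Dll4 Neurl1b (r = 0.872). Between Heyl and Hey1 the value was -0.147, and between Heyl and Notch3 0.939.

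The rest of the pathway was read from lists of 49 further genes, of which 45 passed the filter and 0 had an adjusted p under 0.05 in edgeR. Of the 45, 31 had a negative and 14 a positive log2 fold change, with a median of -0.08. Of all genes tested 47.8% were negative. In 4 of the 45 every mutant lay below every control and in 1 every mutant lay above, against 4.83% and 4.04% of all genes tested. The 4 were the target genes Hes1 and Gja4, the protease subunit gene Psen2 and the coactivator gene Maml1, and the 1 was Aph1a, which encodes another subunit of the gamma-secretase that cuts Notch. Gja4, which encodes a gap junction protein of arterial endothelium, was read at 114, 139 and 126 CPM in the controls and at 108, 103 and 80.6 CPM in the mutants. Its log2 fold change was -0.38 (standard error 0.14, unadjusted p = 0.0325, adjusted p = 0.999 from the edgeR test). Hes1, a repressor that Notch induces in many tissues, stood at 70.0, 64.1 and 64.5 CPM against 63.8, 63.6 and 60.9 CPM, which is -0.08 on the log2 scale (standard error 0.09), with groups separated by a margin smaller than 1 CPM. Efnb2, an arterial ephrin, had -0.14 (standard error 0.23), and Hes5 and Hes7 did not pass the filter.

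The gamma-secretase subunits went both ways. Psen2 was read at 34.1, 39.3 and 32.2 CPM in the controls and at 29.7, 29.0 and 27.4 CPM in the mutants. This amounted to -0.30 on the log2 scale (standard error 0.11, unadjusted p = 0.0354, adjusted p = 0.999 from the edgeR test). Aph1a was read at 39.7, 37.1 and 39.0 CPM in the controls and at 45.9, 47.9 and 57.2 CPM in the mutants, every one of them above the controls. Aph1a differed by 0.38 on the log2 scale (standard error 0.11, unadjusted p = 0.0117, adjusted p = 0.999 from the edgeR test). Ncstn, a further subunit, had 0.13 (standard error 0.10). Of the 10 protease genes 4 were lower and 6 higher in the mutants. In the nuclear complex, Rbpj itself differed by -0.12 on the log2 scale (standard error 0.12) and Maml1 by -0.27 (standard error 0.13), and 5 of 9 genes were lower. Of the 5 genes that add sugars to Notch receptors 4 were lower. They were Lfng at -0.48 (standard error 0.32), Mfng at -0.41 (standard error 0.30), Poglut1 at -0.07 (standard error 0.10) and Rfng at -0.06 (standard error 0.13). Pofut1 was higher, at 0.01 (standard error 0.11). Of the 13 genes of ligand and receptor endocytosis and turnover 11 were lower, among them Epn2, an adaptor for ligand uptake, at -0.26 (standard error 0.12) and Mib2, a ligand ubiquitin ligase, at -0.04 (standard error 0.09). Of the 5 further ligands 3 passed the filter and all 3 were lower, among them Dll1 at 69.1, 74.3 and 57.6 CPM in the controls and 41.6, 66.8 and 63.7 CPM in the mutants, with overlapping groups.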

How the data were processed

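Aortic valve RNA was sequenced in 3 control and 3 mutant libraries on an Illumina HiSeq, with 1 deposited column each, matched by the sample description. Per the labels and the paper's methods, the authors aligned reads to mm10 with TopHat2 2.0.13 and Bowtie2 and deposited the estimated counts that Cuffdiff 2.1.1 assigned to each gene, not scaled for depth. The annotation is not given in the sources used here. Values that were not whole (1.66% to 1.87% in a library) were rounded.

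The 15354 genes that reached 10 counts in 3 or more libraries were compared in R 4.3.3 with edgeR 4.0.16 (TMM, glmQLFit with the legacy option, no covariates), with Benjamini-Hochberg adjustment over all of them. Intervals cover 95%. FPKM used the union of GENCODE M21 exons (GRCm38, the same assembly as mm10). Shares and ratios were compared with exact permutation tests (scipy 1.17.1). The biological coefficient of variation was 0.278. The pipeline was tested on simulated data, where edgeR recovered 32.7% of log2 changes of 1 and 77.8% of log2 changes of 2. Of its 116 calls there 7 were false, and of the 203 calls of DESeq2 60 were false.

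The 10 genes and the lists were chosen with earlier results of these data known. All 10 are named. Of the other Notch genes, those with an unadjusted p under 0.05 or groups without overlap are named. Further genes named are a selection that does not strictly follow mean CPM. Left out above them by mean CPM were the protease genes Furin (log2 fold change 0.15) and Adam10 (-0.06). So were Snw1 of the nuclear complex (0.007) and Dtx3 of endocytosis and turnover (0.10). The genes of like pattern are the top 3 by Pearson's r, of which some are printed. The markers printed with values were named after their values were seen. The alternatives were DESeq2 1.42.0, limma-voom (limma 3.58.1) with and without quality weights, upper-quartile and RLE normalization, no filter, a mean count of at least 100, the replicate number as a block, 3 marker scores as covariates, edgeR without the legacy option, and fits without single libraries.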

Additional observations from a re-analysis of the deposited data

How the results depend on the processing

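In all 19 alternative settings 0 of the 10 genes and 0 of the other Notch genes had an adjusted p under 0.05, and the lowest adjusted p among the 10 was 0.603, for Heyl in DESeq2. DESeq2 called 26 genes over the whole table, and every other setting, each by edgeR or limma-voom, called 0. Heyl, Notch4 and Dll4 had a negative and Hey1 a positive log2 fold change in all 19 settings, and Heyl ran from -0.94 to -0.24. The unadjusted p of Heyl was not under 0.05 without control replicate 2 (0.0824), mutant replicate 1 (0.0666) or mutant replicate 2 (0.0502), with quality weights in limma-voom (0.0533), or with the endothelial (0.0525) or smooth muscle and pericyte score (0.160) in edgeR. With a single library left out there were 6 to 9 genes of the 10 with a negative log2 fold change, 2 to 4 genes lower without overlap (4 without mutant replicate 3, against 9.05% of the genes tested) and 0 to 2 higher without overlap (2, Hey1 and Hey2, without mutant replicate 1, against 9.88%). Among the other Notch genes it gave 5 to 9 lower without overlap of 45 (8 without control replicate 1, 7 without control replicate 3, 9 without mutant replicate 2 or 3), against 9.63%, 8.84%, 10.4% and 9.05% of the genes tested, and 1 to 5 higher (2 without control replicate 1, 5 without control replicate 2 or mutant replicate 2), against 8.82%, 8.48% and 9.57%. Such counts are higher in part by construction, since fewer libraries separate more easily. Over those 6 fits the log2 fold change ran from -0.15 to 0.0035 for Notch1 (positive without mutant replicate 1), -0.359 to -0.03 for Notch2, -0.87 to -0.21 for Notch3, -0.67 to -0.22 for Notch4, -0.54 to -0.04 for Jag1, -0.28 to 0.03 for Jag2 (positive without mutant replicate 1) 0.0039 to 0.30 for Hey1 and -0.0052 to 0.36 for Hey2 (negative without mutant replicate 2).

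With the smooth muscle and pericyte score as a covariate the direction turned for Notch1 (0.0093), Notch2 (0.0853), Notch3 (0.17), Jag1 (0.18) and Jag2 (0.0775), and 3 of the 10 were negative. Without both control replicate 2 and mutant replicate 1 it was positive for Notch1 (0.0018), Notch2 (0.0859), Notch3 (0.11), Jag1 (0.15) and Jag2 (0.0394), with 3 of the 10 negative, 2 higher without overlap (against 18.8% of the genes tested), 2 lower (18.2%), and 11 of the 45 other Notch genes higher and 6 lower without overlap, and Hey2 stood at 0.48 (adjusted p = 0.792 in edgeR). Both settings were chosen after seeing the data, and the cause was not tested.

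Whether the replicate numbers in the labels pair the samples could not be settled from the correlations. The correlation of deviations from the group mean was 0.289, 0.0822 and 0.0313 for the pairs numbered 1, 2 and 3. Between unlike numbers it ran from -0.271 to 0.199, the highest for control replicate 2 with mutant replicate 3. With the replicate block the count of genes called was 0, as without it. Genes with an unadjusted p under 0.05 in edgeR were 5.3% of those tested with the block and 3.45% without it. The log2 fold change of Heyl under the block was -0.78 (unadjusted p = 0.0143, adjusted p = 0.901 in edgeR). Under the block the unadjusted p in edgeR was 0.0438 for Notch4 and 0.0506 for Notch3, against 0.165 and 0.192 without it, and the adjusted p = 0.901 for both. With 3 libraries a group the 95% interval of Notch3, -1.57 to 0.38, was the widest of the 10.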
